A study of Mus musculus with 4 samples.

Results

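Conventional dendritic cells type 2 (cDC2) were selected from 4 single-cell libraries of mouse liver tumours by their transcript counts. A barcode was taken as cDC2 when it held at least 2 molecules of Cd209a, gave 0.3% or more of its molecules to H2-Ab1, H2-Aa and H2-Eb1 and under 0.5% to C1qa, C1qb and C1qc, and held at most 1 molecule each of Xcr1 with Clec9a, Ccr7, Siglech and the Cd3 genes. Molecules are unique molecular identifiers (UMIs). The rule found 146 cells among 42617 barcodes with 300 or more detected genes and under 15% mitochondrial UMIs. The tumours were liver metastases of MC38, a mouse colon adenocarcinoma line, in C57BL/6J mice fed a low-fat or a high-fat diet, and CD45-positive cells had been enriched on magnetic beads. The MC38 cells were either WT or carried shYap, a hairpin against Yap, so that the alteration lay in the tumour line and the host mice of all 4 groups were titled WT. Each combination was 1 library, and the labels do not give the age or number of mice behind it or whether the shYap line was 1 clone. No spread between like libraries could thus be measured. The p-values below take as error how far these 4 libraries depart from the sum of a diet and a line effect. The fit pools that spread over genes, so a p-value does not rest on the departure of its own gene alone. The p-values do not cover other mice. The library titled low-fat shYap was called high-fat in its treatment field. It was used as low-fat, and the other reading is given beside the diet result. Sets of 4 values are in the order low-fat WT, low-fat shYap, high-fat WT, high-fat shYap. The cDC2 numbered 51, 21, 47 and 27.

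Type 2 conventional dendritic cells arise from bone marrow precursors under the growth factor FLT3L, acting through the receptor FLT3, and depend on the transcription factor IRF4. They take up antigen with C-type lectins such as CD209a, MGL2 and CLEC10A, present it on MHC class II to CD4 T cells, and can secrete CCL17, which draws T cells bearing CCR4. Type 1 conventional dendritic cells (cDC1) carry XCR1 and CLEC9A and depend on IRF8. Dendritic cells that have matured carry CCR7, which guides them to lymph nodes.

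The libraries held 9582 to 14779 barcodes each, and 33 to 63 barcodes were shared by any 2 libraries, none of them cDC2. The hairpin's target Yap1 was 4.08, 3.32, 2.64 and 1.6 CPM over the kept barcodes, CPM being the counts of a gene scaled to the summed counts of the cells. In tumour-like barcodes, which had no Ptprc molecule and at least 3 of Tm4sf1, Hmga2 and Msln, it was 20.4, 17.5, 16.3 and 20.1 CPM, so it was not lower throughout the libraries labelled shYap. The cDC2 had medians of 7796, 6942, 10585 and 12210 UMIs, and summed UMIs of 459490, 168756, 532211 and 429449. In the high-fat shYap library 1 cell of 105177 UMIs gave 24.5% of the cDC2 UMIs. It held 403 UMIs of the neutrophil list, 264 of the fibroblast list and 129 of the tumour list. The same library mixed cells with the female transcript Xist and cells with Y-linked transcripts: of its 27 cDC2, 4 held Xist alone, 13 Y-linked transcripts alone, 2 both and 8 neither, while no cDC2 of the other libraries held Xist. Doublet calling marked at most 3 barcodes of a library and so had not worked. Among the barcodes of highest doublet score there were 4, 0, 3 and 0 cDC2, and the cell of 105177 UMIs was not among them.

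The 4 marker genes named for this cell type were all present. Cd209a, which the rule used, lay at 598, 616, 566 and 354 CPM, and each cell held a median of 4, 3, 4 and 5 of its UMIs. Mgl2, a galactose-binding lectin that the rule did not use, was at 459, 812, 951 and 505 CPM and was seen in 25, 16, 39 and 16 cells. Gated T cells, which should lack Mgl2, held it in 0.576%, 0.362%, 1.49% and 2.44% of cells, at median depths of 5339, 6614.5, 5765 and 7145 UMIs. The level of Mgl2 was highest in the high-fat WT library and lowest in the low-fat WT library. The 95% Poisson intervals of these 2 libraries, 870 to 1037 and 399 to 526 CPM, did not overlap, and like all such intervals they cover counting error only.

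Ccl17 was at 631, 474, 744 and 489 CPM, but only 17, 5, 15 and 9 cells held it, against at most 1.16% of T cells. A single cell gave 33.8%, 56.2%, 24.7% and 55.2% of its UMIs, so that Ccl17 marked a minority of the cDC2. Flt3 was at 39.2, 77.0, 24.4 and 72.2 CPM, in 16, 8, 9 and 12 cells, and 0.362% to 1.03% of T cells held it. Flt3 was higher in both libraries labelled shYap, while its counts were only 13 to 31 UMIs in a library and the intervals of the low-fat pair, 23.2 to 61.9 and 41.0 to 132 CPM, overlapped. In the GRCm38 build these genes lie at 8:3743397-3748984 (Cd209a), 11:70130329-70137550 (Mgl2), 8:94810453-94812036 (Ccl17) and 5:147330741-147400489 (Flt3).

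**Figure D1:**
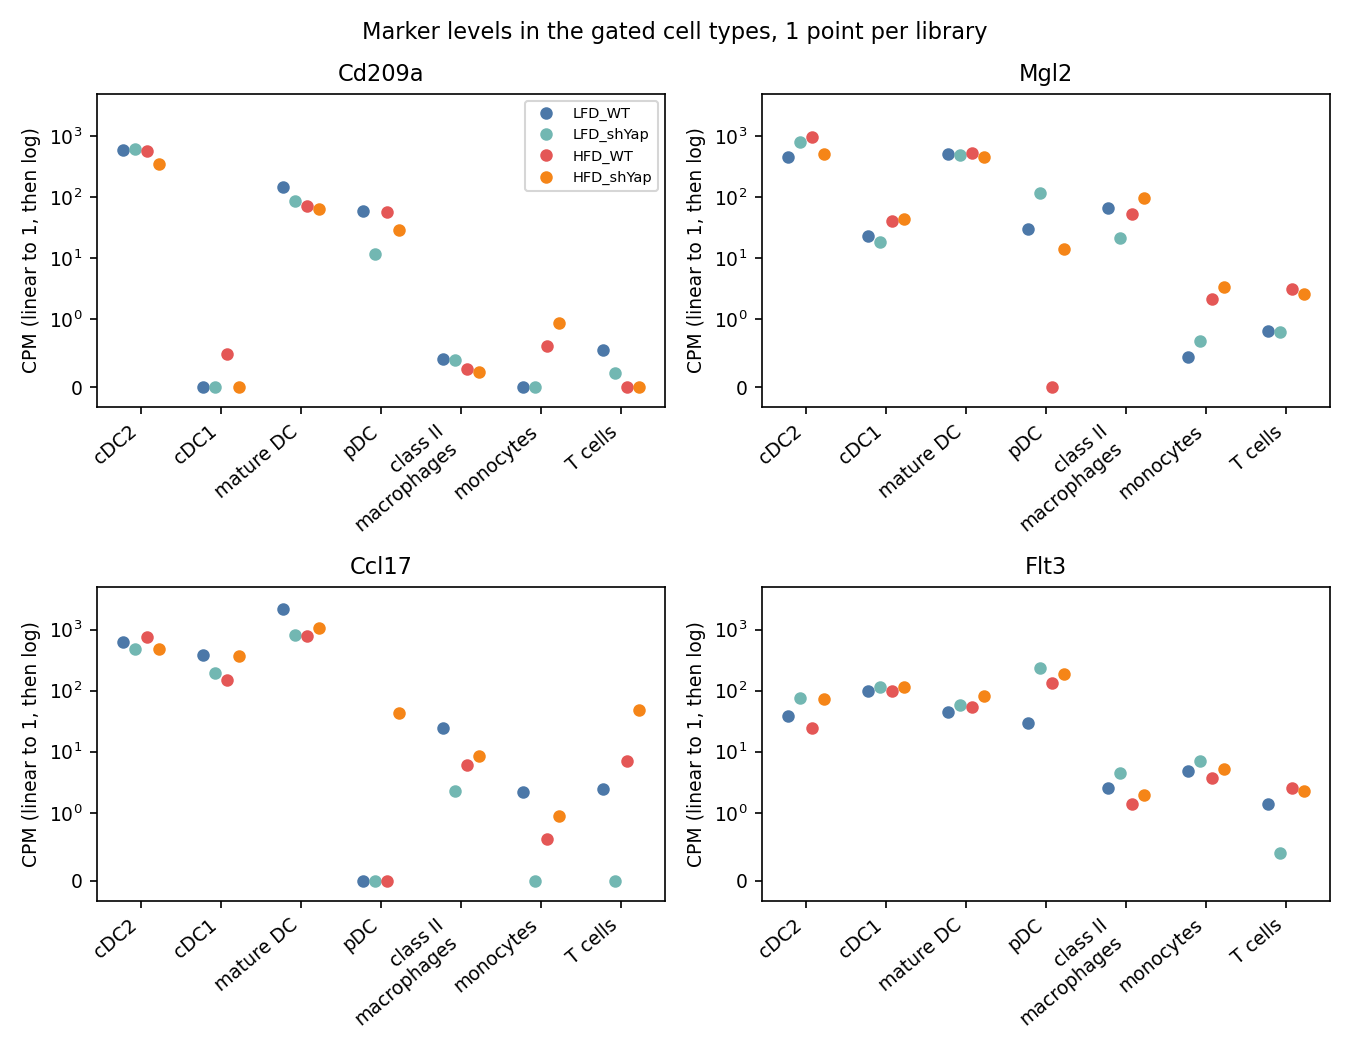
CPM of Cd209a, Mgl2, Ccl17 and Flt3 in the gated cell types, 1 point per library, on an axis that is linear to 1 and logarithmic above. Mgl2 and Ccl17 were high in cDC2 and in mature dendritic cells, whose gate set no limit on Cd209a. Flt3 was higher in cDC1 than in cDC2.

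The other identity genes were present as well. Clec10a, a lectin, was at 335, 314, 280 and 228 CPM, against 5.31 to 17.4 CPM in T cells. Irf4 was at 97.9, 47.4, 62.0 and 81.5 CPM, and Itgax, the integrin CD11c, at 181, 178, 175 and 140 CPM. Zbtb46, a transcription factor of conventional dendritic cells, was at 21.8, 11.9, 11.3 and 11.6 CPM. Of the 6 genes of the ESAM and T-bet type of cDC2, 4 were detected, and the list summed to 78.3, 130, 73.3 and 58.2 CPM. Esam and Dtx1 had no UMI in any library and Cd4 had 1 UMI in all. All 6 genes of the CLEC12A and CX3CR1 type were detected. Tmem176b was at 296, 385, 248 and 293 CPM and Cd14 at 588, 806, 592 and 533 CPM, but Cx3cr1 only at 23.9, 11.9, 28.2 and 14.0 CPM. No type was assigned from these genes. Marker lists of other lineages differed in level. The T cell list summed to 11.3 to 21.8 CPM, and B cell genes were at 0 in 3 of the 4 libraries. The macrophage list summed to 6864, 6495, 3061 and 1509 CPM, and the monocyte list to 1987, 2649, 1917 and 1646 CPM. The fibroblast list was at 289, 11.9, 472 and 615 CPM, the neutrophil list at 26.1, 94.8, 58.2 and 1199 CPM and the tumour list at 122, 5.93, 67.6 and 303 CPM.

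The thresholds of the rule cut through a continuum. Members with exactly 2 Cd209a UMIs numbered 15, 4, 11 and 7, and barcodes just outside, with exactly 1, numbered 27, 16, 23 and 22. Pooled over libraries, Mgl2 was at 624 CPM in members with exactly 2 UMIs, at 689 CPM in members with 3 or more, and at 686 CPM in barcodes with 1. Ccl17 was at 727, 580 and 405 CPM in the same order, and Irf4 at 103, 68.1 and 36.6 CPM. Barcodes that failed only the complement limit numbered 9, 10, 8 and 7 and had more Apoe, 23150 CPM, and less Ccl17, 133 CPM. A further 20, 12, 23 and 17 barcodes failed only through Ccr7.

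The following comparisons with other gated cells are descriptions, since the cells were chosen by their transcripts. Against cDC1, Ifitm1, an interferon-induced membrane protein, was higher by a median of 31.7-fold over the 4 libraries, at 2942, 4521, 2817 and 2345 CPM in cDC2. S100a4 was 28.8-fold higher, Ptgs2, the inducible cyclooxygenase, 25-fold, Mgl2 21.7-fold and Il1r2, the decoy receptor of interleukin 1, 16.4-fold. Lower than in cDC1 were Irf8, by 15.9-fold, with 118, 47.4, 43.2 and 60.5 CPM in cDC2 against 819 to 1060 CPM, and Itgae, the integrin CD103, by 10.9-fold. Cadm1, an adhesion molecule of cDC1, was 20.2-fold lower with counts under 3 UMIs set to 3.

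Against mature dendritic cells the differences in the upward direction were smaller. Their gate asked for at least 2 UMIs of Ccr7 and set no limit on Cd209a. The 20, 12, 23 and 17 barcodes that failed the cDC2 rule only through Ccr7 were thus among its 128, 59, 162 and 146 cells. Jun was 2.96-fold, Cd300a 2.48-fold and Clec10a 2.20-fold higher in cDC2. Lower were Ccl5 by 12.4-fold, Ccl22 by 11.7-fold and Cxcl9 by 6.90-fold, all T cell attracting chemokines. Il12b, a subunit of interleukin 12, had no UMI in cDC2 of any library and 161 to 553 CPM in mature dendritic cells. Setting cDC2 at 3 UMIs in a library, it was at least 54.9-fold lower at the median.

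Against C1q-positive macrophages with class II, Ccl17 was 84.4-fold higher in cDC2. H2-Oa was 49.9-fold and H2-DMb2 24.5-fold higher, both parts of the peptide-loading machinery of class II. Klrd1, the receptor subunit CD94, was 58.7-fold higher, with 418, 510, 344 and 319 CPM. T cells also held it, at 307 to 450 CPM. Cx3cr1, Adgre1, which encodes F4/80, and the transcription factor Maf were 22.9-fold, 16.2-fold and 16.4-fold lower.

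Among the genes of antigen presentation, Cd74, the invariant chain, was at 15831, 21759, 19479 and 15445 CPM and H2-Ab1 at 8712, 11638, 10633 and 8371 CPM. The 12 genes of the class II list summed to 44619, 62362, 53699 and 43051 CPM, highest in the low-fat shYap library. H2-DMa, which edits peptides, was at 862 to 1019 CPM, and Ciita, the class II transactivator, at 67.5, 35.6, 41.3 and 65.2 CPM. Costimulatory Cd86 was at 146, 207, 150 and 126 CPM and Cd80 at 97.9, 65.2, 82.7 and 58.2 CPM.

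Among cytokines, Il1b, which encodes interleukin 1 beta, was by far the most counted, at 3093, 1961, 2888 and 1965 CPM in 49, 18, 45 and 27 cells. T cells of the same libraries held it at 81.6 to 214 CPM and in 12.5% to 27.1% of cells, and mature dendritic cells at 1345 to 2651 CPM. Il12a, Il12b, Il27, Il6 and Il10 had no UMI in any of the 146 cells. With 51, 21, 47 and 27 cells, and a limit of 3 counts, an absence at this depth does not show that these genes were silent. Of the receptors, Csf2rb, the shared chain of the GM-CSF receptor, was at 250, 338, 413 and 289 CPM and Ccr2, which guides monocyte-derived cells and cDC2, at 161, 88.9, 69.5 and 142 CPM. Klf4, a transcription factor needed by a part of cDC2, was at 490, 332, 560 and 671 CPM.

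The cells fell into 5 sub-clusters, kept by number and leading genes. Their genes were used to form them, so they are described without a test. Sub-cluster 1, of 42 cells, was led by Ccl22, Arl5c, Tnfsf9, Nfkbid, Tbc1d4 and Nfkbiz, and had the most Ccl17, 1457 CPM. Nfkbid and Nfkbiz encode regulators of NF-κB, and Tnfsf9 encodes the T cell costimulator 4-1BB ligand. Sub-cluster 2, of 37 cells, was led by Zfp36l2, Emilin2 and Cd24a at folds of 2.71 or less. Sub-cluster 3, of 32 cells, was led by Cdh1, which encodes E-cadherin, and had the highest class II sum, 64287 CPM, together with Plet1 and H2-Oa. Sub-cluster 4, of 18 cells, was led by Ly6c2, which marks monocytes, and by the interferon-induced genes Ifit1, Oasl1, Rsad2 and Irf7. Ly6c2 was found in only 33.3% of its cells, against 61.1% for Ifit1 and 94.4% for Irf7. Among all cDC2, 1 cell gave 75.5% of the Ly6c2 UMIs of low-fat WT and 1 cell gave 100% of those of low-fat shYap. The type I interferon list summed to 4099 CPM there and to 271 to 589 CPM in the other sub-clusters.

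Sub-cluster 5, of 17 cells, held cell cycle and stromal transcripts, and whether these lay in the same cells was not tested. The sub-cluster had 6, 0, 9 and 2 cells of the 4 libraries. It was led by Col6a1, Sparc, Ppic, Cald1 and Pcolce, each in 35.3% of its cells, and by the histone gene Hist1h1b in 58.8%. Its cell cycle list summed to 4186 CPM, its fibroblast list to 1614 CPM and its tumour list to 554 CPM, and its class II sum was the lowest, 29316 CPM. It held 5 of the 7 cDC2 of high doublet score and 5 of the 10 cDC2 with 5 or more UMIs of a list of another lineage.

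**Figure D2:**
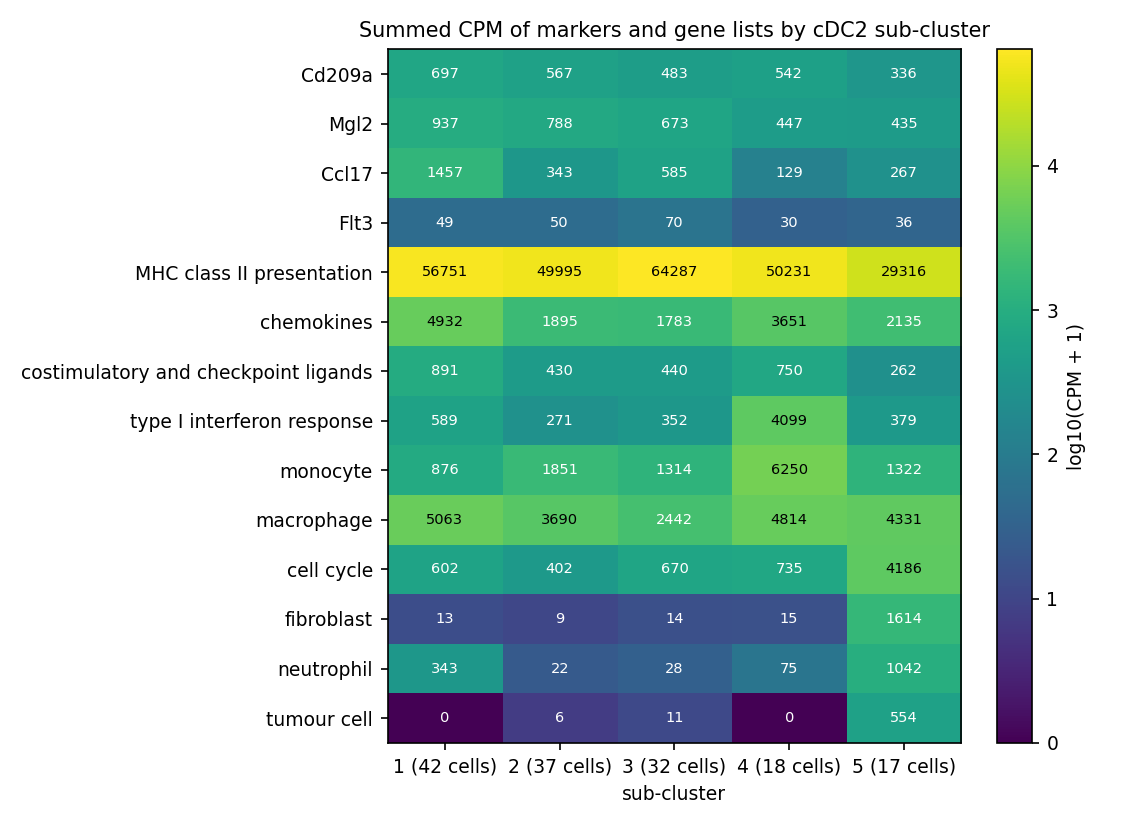
Summed CPM of markers and gene lists in the 5 cDC2 sub-clusters, coloured by log10(CPM + 1), with the CPM printed in each field. Ccl17 stands out in sub-cluster 1 at 1457 CPM, interferon genes in sub-cluster 4 at 4099 CPM and cell cycle and fibroblast genes in sub-cluster 5 at 4186 and 1614 CPM.

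The share of cDC2 in the kept barcodes was 0.406% (95% Clopper-Pearson interval 0.302 to 0.533) in low-fat WT, 0.211% (0.131 to 0.323) in low-fat shYap, 0.385% (0.283 to 0.511) in high-fat WT and 0.342% (0.226 to 0.498) in high-fat shYap. The lowest share was thus in the low-fat shYap library. It differed from low-fat WT by -0.195 percentage points (95% Newcombe interval -0.341 to -0.0469), and 1 library per group allows no test. The interval included 0 with the C1q limit at 0.25%, where the difference was -0.111 points (-0.243 to 0.0236), and with Cd209a at 3 UMIs or more, where it was -0.115 points (-0.243 to 0.0143). High-fat against low-fat gave -0.0211 points (-0.180 to 0.138) with WT tumours and 0.131 points (-0.0232 to 0.303) with shYap tumours, both with intervals that include 0. With Cd209a at 1 UMI or more the latter was 0.249 points (0.0432 to 0.473). The rule needs 2 UMIs of Cd209a, and depth differed between the libraries. With each barcode thinned to 3000 UMIs, which left out 3223, 1551, 2460 and 1394 shallower barcodes, the shares were 0.364%, 0.203%, 0.277% and 0.169%. Unthinned, the same barcodes gave 0.535%, 0.25%, 0.482% and 0.416%. High-fat minus low-fat with shYap tumours was then -0.0331 points (-0.176 to 0.121), from 11 and 17 cells, an interval that includes 0. Among gated dendritic cells of all types, cDC2 made up 16.3%, 11.7%, 12.6% and 8.46%.

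**Figure D3:**
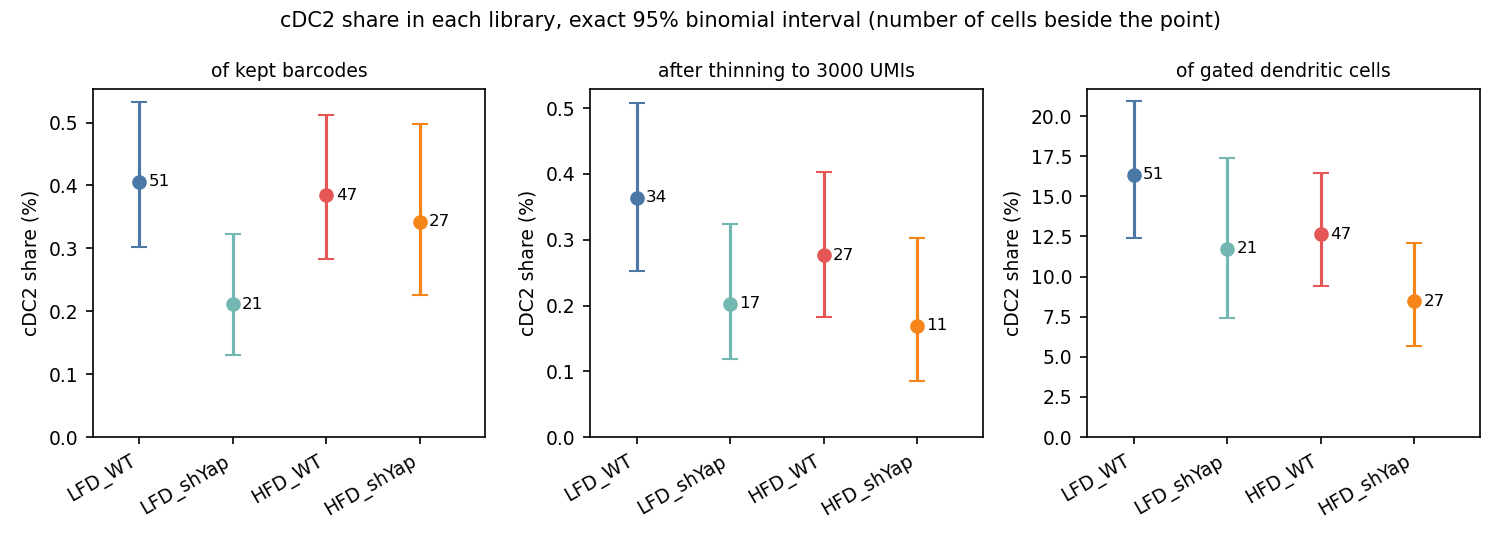
Share of cDC2 in each library, in percent of kept barcodes, after thinning to 3000 UMIs, and of gated dendritic cells, with exact 95% binomial intervals and the number of cells beside each point. The low-fat shYap library was lowest among kept barcodes at 0.211%, the high-fat shYap library after thinning at 0.169%.

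The diet comparison asked how cDC2 transcripts differed between high-fat and low-fat feeding. UMIs were summed over the cDC2 of each library and fitted with edgeR's quasi-likelihood test with diet and tumour line as terms, which leaves 1 residual degree of freedom. That degree of freedom is the interaction of diet and line, which the fit counts as error. Of 4773 genes tested, 8 passed an adjusted p of 0.05 (0.168% called): 2 were higher (0.0419%) and 6 lower (0.126%) with the high-fat diet. The lower genes were Ly6c2, Chil3, Arg1, Tnf, Tnfsf9 and Apoe, and the higher genes Dcn and S100a9. At an unadjusted p under 0.05 there were 224, and DESeq2 called 2. Reading the diet of the low-fat shYap library from its treatment field left 2 genes. With 1 library left out, 3 libraries cannot carry both terms with a residual degree of freedom, so those fits also dropped the line term, and the 2 changes cannot be told apart. Dropping the line term alone left 1 gene. The count was then 0 by edgeR without the high-fat WT or the high-fat shYap library (145 and 110 at an unadjusted p under 0.05), 37 without low-fat shYap and 116 without low-fat WT. On simulated counts the fit recovered 4.33% of 2-fold and 83.8% of 4-fold changes, so small changes were mostly out of reach. The simulation changed only better counted genes and gave all genes 1 spread. It had no interaction of diet and line and no UMIs concentrated in 1 cell. The rate of 83.8% thus may not hold for the real sums.

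Most of these calls rested on single cells. For 6 of the 8 genes, 1 cell gave 50% or more of the UMIs in the highest library. Ly6c2 was at 213, 462, 20.7 and 11.6 CPM, yet came from 3, 1, 4 and 2 cells, and T cells held it at 533, 367, 268 and 151 CPM. Chil3, a chitinase-like protein of monocytes and neutrophils, was at 50.1, 806, 7.52 and 18.6 CPM, with 98.5% of its UMIs in 1 cell of the low-fat shYap library. T cells of that library held Chil3 at 964 CPM. Dcn, which encodes the matrix protein decorin, was at 32.6, 0, 274 and 135 CPM, with 97.3% and 100% of its high-fat UMIs in 1 cell each. Its fitted fold change depends on the prior count, and with the empty library set at 3 UMIs it was at least 7.60-fold higher in high-fat shYap than in low-fat shYap. S100a9, a neutrophil gene, was at 19.6, 23.7, 33.8 and 796 CPM, so that only the high-fat shYap library stood apart, and 84.5% of its UMIs there came from 1 cell.

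Tnfsf9 differed from these in being spread over cells. It was at 146, 356, 26.3 and 123 CPM, with UMIs in 18, 10, 9 and 15 cells, and no cell gave more than 28.3% of its UMIs in a library. Both low-fat libraries were above both high-fat libraries, although low-fat WT at 146 CPM and high-fat shYap at 123 CPM had overlapping Poisson intervals. It fell by 1.98 on the log2 scale with the high-fat diet (SE 0.34, edgeR adjusted p = 0.00787), and by pair the ratio was 0.180 (95% interval 0.0936 to 0.324) with WT and 0.347 with shYap tumours. T cells held Tnfsf9 at 7.72, 11.5, 12.6 and 19.5 CPM, in 4.99%, 9.60%, 7.16% and 13.4% of cells, and were lowest in low-fat WT. The gene lies at 17:57105325-57107757. The direction was the same, but the edgeR adjusted p was above 0.05, without the line term (-1.78) and with the diet from the treatment field (-2.40). It was also above 0.05 where the line term was dropped along with high-fat WT (-1.07), high-fat shYap (-3.18) or low-fat shYap (-1.0). DESeq2 did not call it.

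Apoe, which encodes the lipid carrier apolipoprotein E and is abundant in macrophages, was at 4150, 4664, 1561 and 633 CPM and was found in every cDC2 and in 99.0% to 100% of T cells. Both low-fat libraries were above both high-fat ones, and it fell by 2.18 (SE 0.42, edgeR adjusted p = 0.0194). T cells held Apoe at 4245, 3425, 2177 and 1414 CPM, a level and an order close to those of cDC2. The part of free RNA in this result was not tested. Arg1, at 179, 237, 47.0 and 58.2 CPM, and Tnf, at 32.6, 196, 7.52 and 11.6 CPM, fell with edgeR adjusted p of 0.00787 and 0.00836, and 85% and 84.8% of their UMIs in the low-fat shYap library came from 1 cell.

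**Figure D4:**
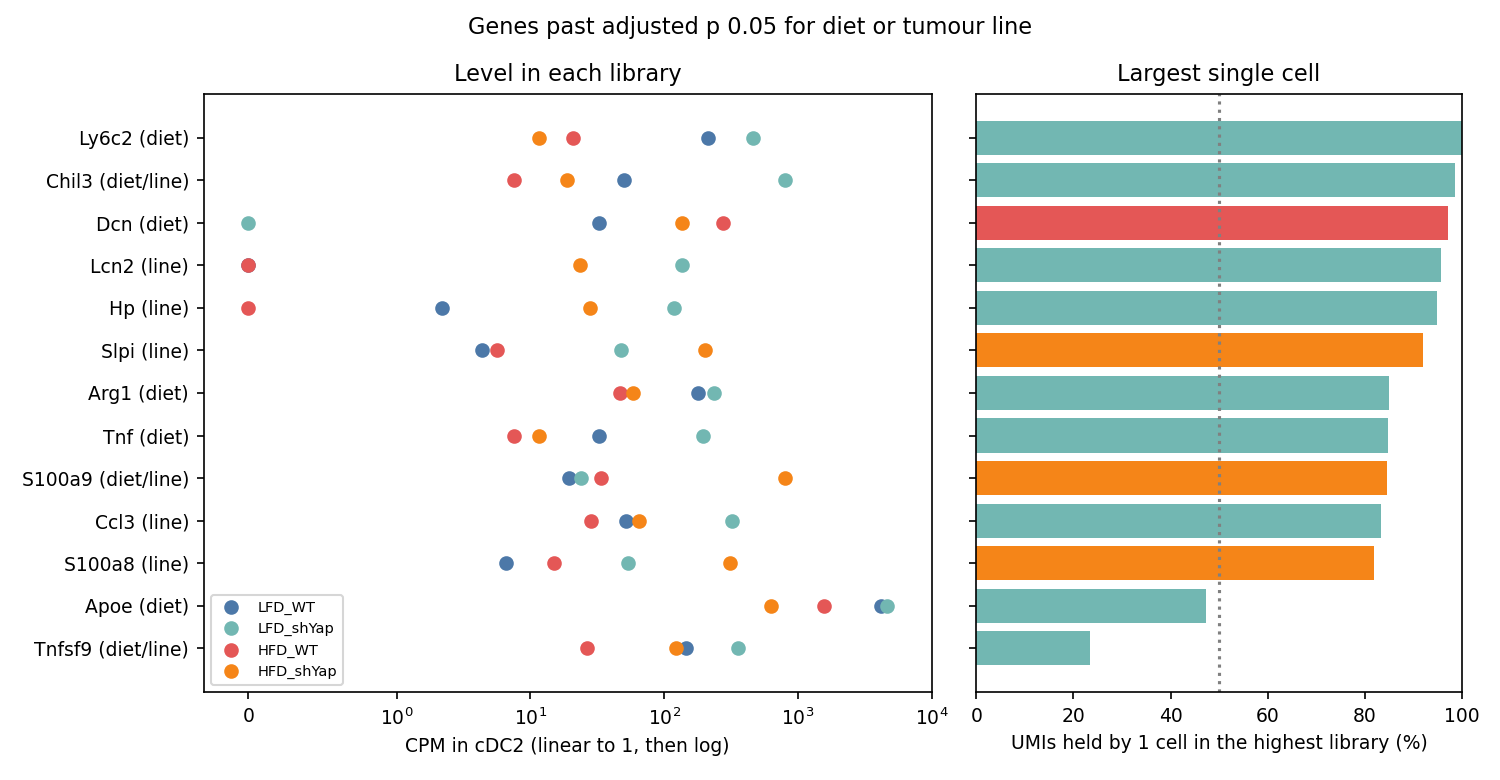
Left, CPM in the cDC2 of each library for the genes past an adjusted p of 0.05 for diet or tumour line, on an axis linear to 1 and logarithmic above. Right, the percentage of UMIs held by 1 cell in the library with the highest level, which is below 50% only for Apoe and Tnfsf9.

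Because few cells carried several of the calls, the fit was repeated without cDC2 holding 5 or more UMIs of a marker list of neutrophils, fibroblasts, tumour cells, lymphocytes, mast cells, endothelium, hepatocytes or erythrocytes, an alternative chosen after seeing the data. It removed 5, 1, 2 and 2 cells and left 136. Of 3724 genes tested, 35 then passed (0.94% called), 3 higher (0.0806%) and 32 lower (0.859%) with the high-fat diet. Of the 8 genes above, Tnfsf9, Tnf, Apoe and Arg1 were among them, and 7 of the 35 had 50% or more of their UMIs in 1 cell of the highest library. Dcn and S100a9 are members of lists by which cells were left out, so their loss followed from the removal. The genes named here from this fit were chosen with their values in view. Of the 35, 25 also passed when only the largest cell of each library was left out, and the genes named below that did not are given with that adjusted p.

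Nfkbia, which encodes the NF-κB inhibitor IκBα, was at 554, 1158, 302 and 313 CPM and fell by 1.37 (SE 0.26, edgeR adjusted p = 5.5e-05). Nfkbiz was at 195, 237, 88.8 and 84.9 CPM and fell by 1.28 (SE 0.31, edgeR adjusted p = 0.00858), and Nfkbid was at 95, 171, 42.3 and 62.0 CPM and fell by 1.31. Nfkbid did not pass without the largest cells (edgeR adjusted p = 0.107), and over all cDC2 none of the 3 passed (edgeR adjusted p of 0.417, 0.145 and 0.244). All of these had both low-fat libraries above both high-fat libraries. T cells held Nfkbiz at 30.4 to 61.1 CPM with no such order, and Nfkbia at 238 to 299 CPM, near the high-fat cDC2. Tnfsf9, at 155, 388, 29.6 and 121 CPM in these cells, fell by 1.99 (SE 0.32, edgeR adjusted p = 7.24e-07). Nfkbid, Nfkbiz, Tnfsf9 and Tbc1d4, the last at 141, 132, 57.1 and 42.5 CPM, also led sub-cluster 1. That sub-cluster held 19 of 51, 7 of 21, 10 of 47 and 6 of 27 cDC2. Since these genes helped to form it, its numbers are no separate evidence, and its part in the diet difference was not tested.

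Of 15 chemokine genes tested in this fit, 6 fell and 1 rose, where 0.859% of all genes tested fell and 0.0806% rose. Over all cDC2 none of the 15 was called. Ccl2, which attracts CCR2-bearing monocytes, was at 318, 145, 44.4 and 32.7 CPM and fell by 2.56 (SE 0.35, edgeR adjusted p = 1.28e-09), while T cells held it at 393, 176, 110 and 83.0 CPM in the same order. Ccl9, at 358, 480, 102 and 291 CPM, fell by 1.27, with T cells at 96.3 to 175 CPM, highest in low-fat WT. Ccl6 also fell, though not without the largest cells (edgeR adjusted p = 0.156), and so did Ccl3, Ccl4 and Cxcl10, whose highest library owed 86.5%, 72.8% and 67.6% of their UMIs to 1 cell. Cxcl10 did not pass without the largest cells (edgeR adjusted p = 0.0944). Ccl5 rose by 1.29, at 86.8, 26.3, 180 and 98.0 CPM, against 3140 to 3796 CPM in T cells, and did not pass without the largest cells (edgeR adjusted p = 0.066). Of 10 macrophage genes tested, Apoe, C1qa and C1qb fell, and 55.6% of the Apoe UMIs of low-fat shYap then came from 1 cell. C1qa was at 738, 388, 285 and 173 CPM in cDC2 and at 603, 390, 422 and 291 CPM in T cells, and the rule itself capped the C1q genes.

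Clec4n, which encodes the fungal receptor dectin-2, was at 358, 428, 230 and 154 CPM and fell by 1.0 on the log2 scale (SE 0.26, edgeR adjusted p = 0.0192). It did not pass without the largest cells (edgeR adjusted p = 0.257) or over all cDC2 (0.823). The syndecan gene Sdc4, at 163, 250, 55.0 and 98.0 CPM, fell by 1.46. The other genes that rose were Itgae, at 2.71, 6.58, 50.7 and 49.0 CPM in 1, 1, 11 and 5 cells (edgeR adjusted p = 0.138 without the largest cells), and Stmn1, a gene of dividing cells, at 166, 13.2, 258 and 121 CPM.

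**Figure D5:**
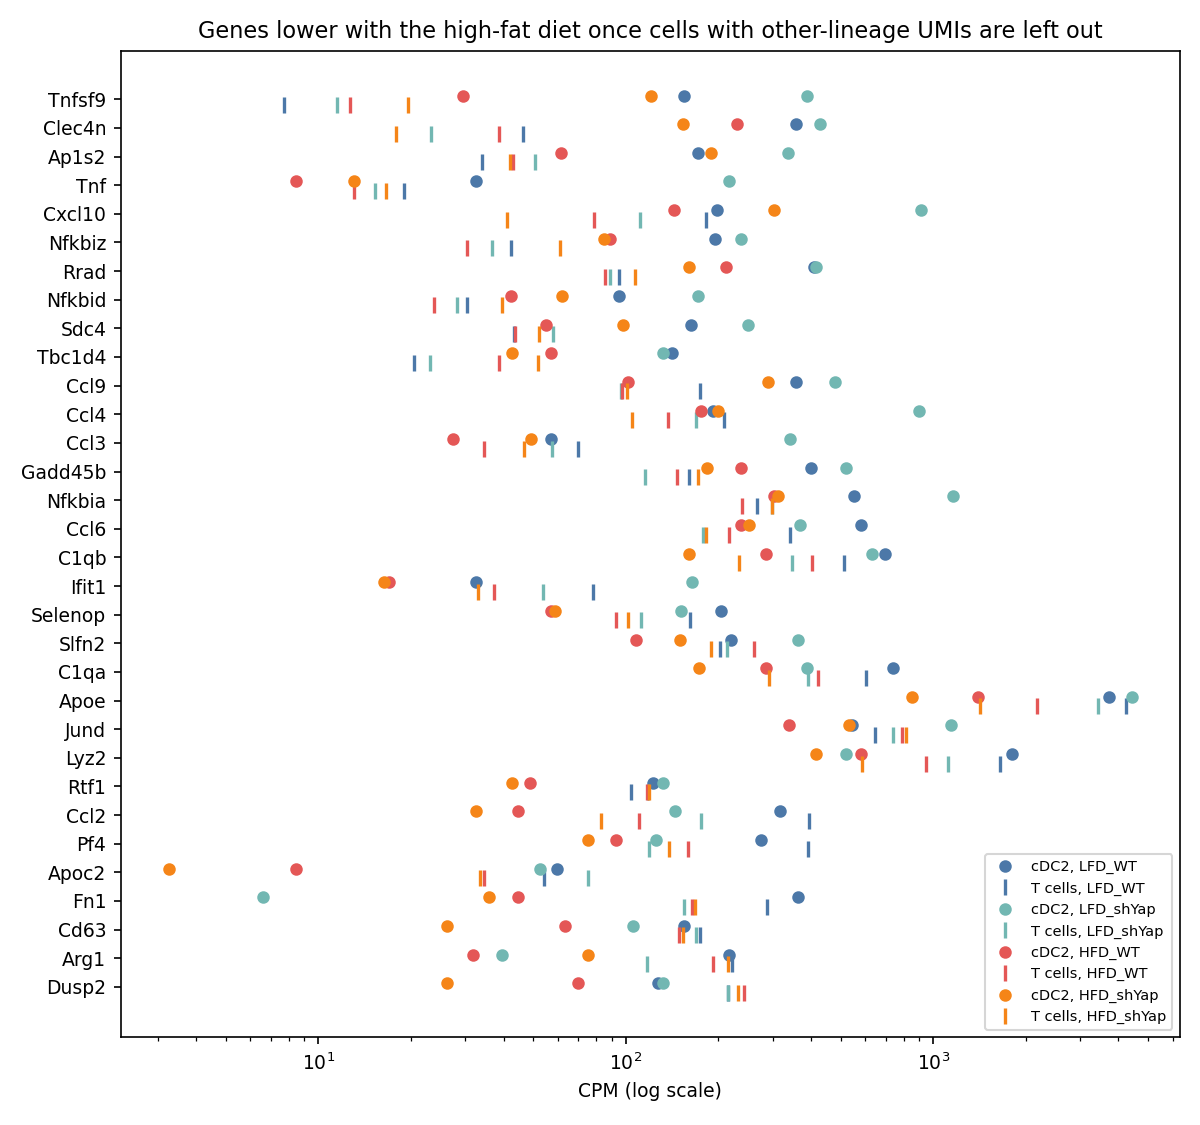
CPM on a logarithmic axis of the 32 genes lower with the high-fat diet once cells with other-lineage UMIs were left out, as points for cDC2 and ticks for T cells of the same library. Genes are ordered by the ratio of the cDC2 to the T cell level: Tnfsf9, Clec4n and Nfkbiz lay well above the T cells, while Apoe, Ccl2 and Lyz2 did not.

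By list, the fit on all cDC2 called few members, as it called 0.168% of all genes tested. Of 9 cDC2 identity genes tested none was called, and their median difference with the high-fat diet was -0.39 on the log2 scale, against -0.01 over all genes tested. None of 12 class II genes was called, with a median of -0.13, and all 8 tested class I genes had positive differences without a call, with a median of 0.33. The class I list summed to 5060, 6015, 6851 and 6369 CPM in cDC2. In T cells it summed to 6521, 6319, 8287 and 7417 CPM, also higher in both high-fat libraries. Of 10 macrophage genes tested 1 fell, and all 10 differences were negative with a median of -1.05. The rule itself set limits on members of these lists: Cd209a among the identity genes, class II genes, and C1qa, C1qb and C1qc among the macrophage genes. Those members stayed in the fit, so their values were in part set by the rule. The summed macrophage list was 6864, 6495, 3061 and 1509 CPM in cDC2 and 6206, 4748, 3637 and 2471 CPM in T cells. The 13 cell cycle genes tested were all positive with a median of 0.90 and no call, and Stmn1 came nearest at an edgeR adjusted p of 0.142. The cell cycle list summed to 1380, 373, 1646 and 1807 CPM, with low-fat shYap far below the other libraries. Of 10 hypoxia and glycolysis genes 9 were positive, with a median of 0.37 and no call. That list summed to 1521, 1535, 1945 and 1877 CPM in cDC2 and to 1641, 1748, 2431 and 2246 CPM in T cells. Of 8 type I interferon genes 6 were negative, median -1.23, with no call.

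The comparison of tumour lines came from the same fit. Of 4773 genes, 8 passed (0.168% called), all higher in the libraries labelled shYap: S100a8, Slpi, Chil3, Lcn2, Hp, S100a9, Tnfsf9 and Ccl3. At an unadjusted p under 0.05 there were 175. S100a8, Slpi, Lcn2 and S100a9 are genes of neutrophils, and for 7 of the 8 genes 1 cell gave 50% or more of the UMIs in the highest library. S100a8 was at 6.53, 53.3, 15 and 310 CPM and rose by 3.95 (SE 0.47, edgeR adjusted p = 0.000168), with 82.0% of its high-fat shYap UMIs in 1 cell. Lcn2 had no UMI in either WT library and 136 and 23.3 CPM in the others. Setting the empty libraries at 3 UMIs, it was at least 20.9-fold higher with the low-fat and at least 4.13-fold higher with the high-fat diet. The summed neutrophil list was 26.1, 94.8, 58.2 and 1199 CPM in cDC2 and included S100a9 and S100a8. The count was 45 without high-fat shYap, 4 without high-fat WT, 9 without low-fat WT and 72 without low-fat shYap, and DESeq2 called 1. These fits also dropped the diet term, which alone left 0 genes by edgeR (147 at an unadjusted p under 0.05), so the 2 changes cannot be told apart. In them the difference of S100a9 was -0.093 without high-fat shYap and that of Chil3 -0.63 without low-fat shYap, while within the remaining pair S100a9 was at 19.6 and 23.7 CPM and Chil3 at 7.52 and 18.6 CPM, higher with shYap.

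Tnfsf9 was again the gene not resting on 1 cell. It rose by 1.71 with the shYap line (SE 0.34, edgeR adjusted p = 0.0327), with shYap above WT on both diets. The ratio was 2.44 (95% interval 1.69 to 3.51) with the low-fat and 4.69 (2.57 to 9.16) with the high-fat diet. Its edgeR adjusted p was above 0.05 without the diet term (1.48), without that term and high-fat WT (0.74) or low-fat shYap (0.49), without genes higher in another type (1.71), with Cd209a at 1 UMI or more (1.48) or 3 or more (1.26), with DESeq2 size factors (1.72) and after thinning (1.28). DESeq2 did not call it. Ccl3, at 52.2, 320, 28.2 and 65.2 CPM, rose by 2.05, and 83.3% of its low-fat shYap UMIs came from 1 cell.

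Without the 10 cells with other-lineage UMIs, 38 of 3724 genes differed between lines (1.02% called), 20 higher (0.537%) and 18 lower (0.483%) in the libraries labelled shYap, and of the 8 genes above Tnfsf9 and Ccl3 were among them. No gene of the neutrophil list passed the filter on low counts. Cells had been left out by that list, which holds S100a8 and S100a9, so this followed from the removal and is no separate result. Of 10 cell cycle genes tested 3 fell: Stmn1, at 166, 13.2, 258 and 121 CPM, Ube2c and Hmgb2. Ube2c had 52.9% of its UMIs in 1 cell of high-fat WT, its highest library. Over all cDC2 none of 13 was called for line, Ube2c was at -0.15, and the list summed to 1380, 373, 1646 and 1807 CPM. Ccl17 fell by 0.93 (SE 0.26, edgeR adjusted p = 0.0406), at 787, 526, 782 and 307 CPM in 17, 5, 14 and 8 cells, so that both WT libraries were above both shYap libraries. Among all 146 cells, Ccl17 did not pass (-0.49, SE 0.29), nor without the largest cells (edgeR adjusted p = 0.995). Cxcr4, a chemokine receptor, rose by 1.03, at 138, 204, 102 and 261 CPM, but did not pass without the largest cells (edgeR adjusted p = 0.0832). Jun and Egr1, immediate early genes, rose by 1.47 and 1.69 in this fit. Over all cDC2 they were at 0.07 and -0.29, and without the largest cells their edgeR adjusted p was 0.184 and 0.554. Lars2 rose by 1.53, at 84.1, 178, 102 and 353 CPM, and T cells held it at 127, 155, 202 and 719 CPM.

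Single pairs of libraries showed further differences that have no replicate check. Plet1, a surface protein gene that also led sub-cluster 3, was at 41.4, 207, 263 and 30.3 CPM. It was 6.36-fold (95% interval 3.92 to 10.9) higher in high-fat WT than in low-fat WT and lower in high-fat shYap than in high-fat WT, at a ratio of 0.115 (0.0598 to 0.203). Il7r, the interleukin 7 receptor, was at 47.9, 41.5, 133 and 48.9 CPM, a ratio of 2.79 (1.71 to 4.72) for the WT pair. After thinning, the WT pair gave 3.15 (0.908 to 13.8) for Plet1 and 1.89 (0.71 to 5.33) for Il7r, intervals that include 1. For Plet1 in high-fat shYap against high-fat WT, thinning gave 0.982 (0.225 to 3.4), so that difference was not detectable at equal depth. Serpinb9, an inhibitor of granzyme B, was at 28.3, 35.6, 111 and 46.6 CPM, a ratio of 3.92 (2.12 to 7.79). All 3 were highest in the high-fat WT library. Areg, which encodes the growth factor amphiregulin, was at 113, 0, 15 and 0 CPM, in 12 and 3 cells of the WT libraries. Id3 had 168, 65.2 and 121 CPM in the other libraries and a single UMI in high-fat WT. The class I gene H2-Q7 was at 139, 237, 272 and 97.8 CPM.

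The diet and line differences of cDC2 were set against those of class II macrophages in 1 model with the library as a block. The diet difference differed between the cell types for 33 of 11388 genes (0.29% called), 12 more positive (0.105%) and 21 more negative (0.184%) in cDC2. For 18 of the 33, 1 cell gave 50% or more of the cDC2 UMIs in the highest library. The difference of Tnfsf9 in macrophages was -0.45, at 19.1, 15.5, 11.5 and 15 CPM, and the difference between the cell types was -1.59 (edgeR adjusted p = 0.0447). The difference of Arg1 was 0.97 in macrophages and -2.01 in cDC2. For Apoe it was -0.85 in macrophages and lower still in cDC2. The line difference differed for 22 genes (0.193% called), 17 more positive (0.149%) and 5 more negative (0.0439%) in cDC2. For 15 of the 22, 1 cell gave 50% or more of the cDC2 UMIs in the highest library. Among the 17 was Tnfsf9 at 1.68 (edgeR adjusted p = 0.0310).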

How the data were processed

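The authors deposited raw UMI counts for 32285 genes in each library, and per the file headers the software was Cell Ranger in version 6.0.0. The submitters' processing notes instead list version 4.0.0, the aligner STAR 2.5.1 and the build mm10. Gene positions are those of the files' annotation on GRCm38. Barcodes, cell types and comparators were gated on those counts. CPM scales the UMIs of a gene to all UMIs of the gated cells of a library. The members, gene lists and tests were chosen with earlier results of these data known. Sums were fitted with edgeR 4.0.16 (R 4.3.3), TMM scaling, filterByExpr and Benjamini-Hochberg adjustment over all genes tested, checked on simulated data. DESeq2 1.42.0 was an alternative. Sub-clusters used scanpy 1.11.5 on 1000 variable genes without the gate genes, at resolution 0.5. Single libraries got exact Poisson, conditional binomial, Clopper-Pearson or Newcombe 95% intervals, which cover counting error only. A gene with fewer than 3 UMIs in a library was set to 3 for ratios. Free RNA was gauged by levels in gated T cells. Named genes were the markers, up to 10 called genes each way by smallest p and of the same sign in both pairs of libraries, up to 4 of each list by smallest p, every cDC2 identity, chemokine and class II gene, the 4 highest and 4 lowest ratios of each pair of libraries, the 8 highest and 8 lowest against each comparator, and the 6 leading genes of each sub-cluster. Doublets were ranked by scrublet score. Alternatives changed the gate, depth, filter, scaling, tool, library set, doublets, the diet label and cells left out.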

Additional observations from a re-analysis of the deposited data

Results flagged for a closer look

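The diet difference in cDC2 differed from that in class II macrophages, by the test of the interaction in edgeR, for 33 genes, and the line difference for 22 genes. Among the genes the report names for diet, cDC2 less macrophages on the log2 scale came to -4.39 for Ly6c2, -3.34 for Chil3, 2.15 for Dcn, -2.99 for Arg1, -1.59 for Tnfsf9, -2.72 for Tnf, -1.34 for Apoe and 4.09 for S100a9. For the tumour line it came to 6.67 for S100a8, 6.59 for Slpi, 2.72 for Chil3, 5.62 for Hp, 6.23 for S100a9, 1.68 for Tnfsf9 and 1.98 for Ccl3. The value for Lcn2, 13.53, depends on the prior count, since both WT libraries had no UMI of it in cDC2. Of these 13 genes, Tnfsf9 and Apoe had under 50% of their cDC2 UMIs in 1 cell of the highest library.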

How the results depend on the processing

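No paired analysis was possible because the labels give no replicate numbers; diet and line were terms of the same fit. Leaving out 1 library also dropped the other term, so those values change 2 choices. The number of genes called for diet, 8, was 26 with Cd209a at 3 UMIs or more, 37 and 21 when high-fat shYap was limited to cells without and with Xist, 2 with DESeq2, 2 with the diet read from the treatment field, 39 without a filter on low counts, 35 without cells with other-lineage UMIs, 40 without barcodes of high doublet score, 3 without genes higher in another type, 31 without the largest cell of each library, 1 without the line term, and 0 to 116 leaving out 1 library. All 8 diet genes lost the call with the treatment-field diet and without either high-fat library. The 8 genes called for line became 5 with Cd209a at 3 UMIs or more, 28 with Xist-bearing cells, 1 with DESeq2, 17 without a filter, 38 without cells with other-lineage UMIs, 29 without barcodes of high doublet score, 25 without the largest cells, and 4 to 72 leaving out 1 library. It was 0 by edgeR without genes higher in another type and without the diet term, with 157 and 147 genes at an unadjusted p under 0.05. The interaction counts moved to 7 for diet with the treatment-field diet and to 35 for line without barcodes of high doublet score; leaving out a library was not run for them. Shares of all dendritic cells differed by -3.71, -3.27, -4.61 and -4.17 points for the pairs high-fat minus low-fat with WT and shYap, and shYap minus WT with low-fat and high-fat, and thinning turned the high-fat minus low-fat difference with shYap to -0.0331 points. Without the largest cells some ratios moved to the other side of 1, with intervals that include 1. Dcn was then 0.318 (0.0738 to 1.07) for high-fat over low-fat WT. Chil3 was 1.25 (0.374 to 18.1) for high-fat over low-fat shYap and 0.382 (0.0290 to 1.03) for low-fat shYap over WT. In both Chil3 ratios low-fat shYap was set at 3 UMIs. After thinning, H2-Q7 was at 1.05 (0.424 to 2.40) for high-fat shYap over WT, an interval that includes 1. Ccl17 moved to the other side of 1, at 0.648, for high-fat over low-fat WT. So did Ccl3 for low-fat shYap over WT (0.750, interval 0 to 1.17), with low-fat shYap set at 3 UMIs. The thinned ratios of Mmp8 (1.16, interval 0 to 2.34, high-fat over low-fat shYap) and Stmn1 (1.5, interval 0 to 3.03, low-fat shYap over WT) were above 1. There the first library had no UMI and was set at 3, so these values show no reversal. Without cells with other-lineage UMIs, Chil3 reversed to 0.331 (0.0251 to 0.897) for low-fat shYap over WT, with low-fat shYap set at 3 UMIs. Ccl17 was at 0.994 for high-fat over low-fat WT, with 782 and 787 CPM, so the 2 libraries were nearly equal. S100a9 was at 0.372 (0.0225 to 1.73) for high-fat over low-fat shYap, an interval that includes 1. S100a9 belongs to a list by which those cells were left out. Leaving out 1 library and the diet term, the line difference ranged from -0.63 (without low-fat shYap) to 5.70 for Chil3 and from -0.093 (without high-fat shYap) to 4.79 for S100a9. The cause of the changes was not tested. With 21 to 51 cells a library, changes of 2-fold were mostly not recovered even in simulated counts with 1 spread for all genes.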
